A study of Mus musculus with 4 samples.

Results

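The SR and hnRNP splicing regulators were followed as 30 genes of the 20065 genes in the deposited table, 12 of the SR family and 18 of the hnRNP family. They were taken by name from a fixed list, and all 30 were present. The samples were 4 cultures of satellite cells (muscle stem cells, MuSC) from limb and trunk muscles of adult C57BL/6 mice. Their RNA, depleted of ribosomal RNA, was read on an Ion Torrent Proton instrument. The 2 control cultures were labelled Pax7CreERT2/Prmt5+/loxP (+TAM), and the 2 mutant cultures, named Prmt5sKO here, Pax7CreERT2/Prmt5loxP/loxP (+TAM). Both groups thus carried the tamoxifen-inducible Cre recombinase driven from Pax7, which limits recombination to cells that express it, and the tamoxifen label (TAM), and the controls also had a loxP allele beside an intact copy of Prmt5. The paper describes the MuSC of its RNA-sequencing as treated with 4-hydroxytamoxifen (4-OH), which it used for deletion in culture. The comparison asks how transcripts of these regulators differ in MuSC that have lost Prmt5, an arginine methyltransferase.

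SR proteins bind exonic RNA through an RNA recognition motif and recruit the spliceosome through a tail rich in arginine and serine, which SRPK and CLK kinases phosphorylate. The heterogeneous nuclear ribonucleoproteins (hnRNPs) package nascent transcripts, and several of them repress exons that SR proteins favour. Prmt5 places symmetric dimethyl marks on arginines of Sm proteins, the core of spliceosomal small nuclear ribonucleoproteins, and of several RNA-binding proteins. Many SR genes limit their own expression by including poison exons, whose transcripts are removed by nonsense-mediated decay. In muscle, alternative splicing is known to change widely as myoblasts become fibres.

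The deposited columns hold group means. Because every such mean adds up whole reads of 2 libraries, each worth a fixed step, the reads of each library could be worked out again for 100% of the genes in both groups, within a relative tolerance of 2e-14. The columns carry no replicate numbers, so each library is named by its depth, with 14436914 (deeper) and 13240754 (shallower) recovered counts for control and 20047430 (deeper) and 16190414 (shallower) for Prmt5sKO. Ribosomal-type transcripts and Lars2 took 6.56% (deeper) and 14.9% (shallower) of the counts in control libraries. In Prmt5sKO libraries they took 1.97% (deeper) and 2.66% (shallower), so this share differed between the groups. The members took between 0.599% and 0.794% of the counts of a library. Values below are normalized counts (counts scaled by trimmed mean of M-values, TMM, to a library of 16133774 reads). Nothing in the labels says that the libraries of a group came from separate animals, so p-values measure only the spread between these libraries, which may be technical. Prmt5 itself stood at 2273 and 2906 in the control libraries and at 244 and 202 in the Prmt5sKO libraries, on the side the labels give. Among markers of the cells, Pax7 was between 2570 and 3664 and Myod1 between 12150 and 15550 in every library. Of the 8 satellite cell and myoblast markers listed, Des and Myf5 had the largest log2 fold changes (0.67 and -0.41). Des was at 14910 and 12510 in control and at 14370 (deeper) and 32170 (shallower) in Prmt5sKO libraries. Myf5 was at 1630 and 1772 against 1305 and 1252. The summed levels of other cell types' markers were far lower. The endothelial sum was 124 and 163 in control and 90.4 and 56.3 in Prmt5sKO libraries, the leukocyte sum 122 and 126 against 65.9 and 101, and the fibro-adipogenic sum 65.5 and 196 against 67.4 and 80.5. Of these lists 3 of 5, 3 of 5 and 4 of 5 markers were abundant enough to be tested, and their part in the results was not tested.

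Promoters were examined as a feature that the choice of members did not use. RefSeq (GRCm38.p6) gave a window of 300 bases, 250 before to 50 after the start, for 29 of the 30 members. The 150 bases before the start are shown for the 2 genes of each family with the largest differences between the groups. Capitals mark a GC box (GGGCGG) or a CCAAT box (CCAAT) on either strand, and each sequence runs 5′ to 3′ along the gene's own strand. Srsf2 and Srsf9 are the SR genes, at chr11:116853095-116853244 on the minus strand and chr5:115327027-115327176 on the plus strand. Hnrnpab and Hnrnpd are the hnRNP genes, at chr11:51606882-51607031 and chr5:99978939-99979088, both on the minus strand. In GENCODE these protein-coding genes are ENSMUSG00000034120 (Srsf2), ENSMUSG00000029538 (Srsf9), ENSMUSG00000020358 (Hnrnpab) and ENSMUSG00000000568 (Hnrnpd).
Srsf2: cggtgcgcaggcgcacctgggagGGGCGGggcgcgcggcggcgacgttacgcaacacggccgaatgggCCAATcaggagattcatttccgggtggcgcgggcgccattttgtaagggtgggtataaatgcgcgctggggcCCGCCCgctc
Srsf9: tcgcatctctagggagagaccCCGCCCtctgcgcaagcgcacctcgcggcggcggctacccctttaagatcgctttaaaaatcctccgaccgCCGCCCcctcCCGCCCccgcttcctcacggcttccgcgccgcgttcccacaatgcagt
Hnrnpab: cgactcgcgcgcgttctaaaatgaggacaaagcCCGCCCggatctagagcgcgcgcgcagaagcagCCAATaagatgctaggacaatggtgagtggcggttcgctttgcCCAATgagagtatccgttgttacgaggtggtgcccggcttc
Hnrnpd: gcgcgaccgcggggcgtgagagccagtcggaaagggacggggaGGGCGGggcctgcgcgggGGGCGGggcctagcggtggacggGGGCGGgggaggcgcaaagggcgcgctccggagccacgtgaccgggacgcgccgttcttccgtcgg

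Srsf9 and Hnrnpd each have 3 GC boxes and no CCAAT box in the stretch shown, Hnrnpab has 1 GC box and 2 CCAAT boxes, and Srsf2 has 2 GC boxes and 1 CCAAT box. In the whole windows, a GC box was present for 11 of 12 SR genes and for 12 of 17 hnRNP genes, beside 35.9% of 27025 mouse promoters. A CCAAT box was present for 5 of 12 SR and 12 of 17 hnRNP genes, beside 37.9% of all promoters. The E-box CACGTG was found in 0 of 12 SR and 4 of 17 hnRNP windows (7.24% of all promoters), and the ETS letters CCGGAAG in 4 of 12 and 2 of 17 (9.12% of all promoters). All motifs were searched on both strands. Any of 4 spellings of an E2F motif (TTTCCCGC, TTTGGCGC, TTTCGCGC or TTTGCCGC) was found in 3 of 12 SR and 1 of 17 hnRNP windows (2.32% of all promoters). A match is a description of letters and not a binding site.

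In both families most members were lower in the Prmt5sKO libraries, and no single member passed the test. The log2 fold change (Prmt5sKO over control) was negative for 27 of the 30 members, 10 of 12 SR genes and 17 of 18 hnRNP genes, for 22 of 30 under scaling by library size alone and for 20 of 30 (7 SR and 13 hnRNP genes) without the shallower Prmt5sKO library. The family median was -0.19 for SR genes (range -0.86 to 0.27) and -0.29 for hnRNP genes (range -1.19 to 0.30), beside 0.02 for the 16212 genes tested. Without the shallower Prmt5sKO library the medians were -0.17 for both families. Both Prmt5sKO libraries lay below both control libraries for 7 of 12 SR genes and 11 of 18 hnRNP genes, as they did for 23.6% of all genes tested. No member had both Prmt5sKO libraries above both controls, an order found for 25.2% of the genes tested. The members are abundant transcripts, and among the 7831 genes whose mean normalized count reached 300, that of the lowest member, the shares were 28.7% below and 23.8% above, with a median of -0.01.

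By limma-voom, with p-values adjusted over all genes (Benjamini-Hochberg), 0 genes were called at an adjusted p of 0.05 (0% of those tested), and limma-trend also called 0. The paper, with another count model (DESeq2), reports genes up- and downregulated at a false discovery rate under 0.05. The 0 calls thus belong to the tests used here and do not show that no gene differed. At an unadjusted p under 0.05, 3 SR genes (Srsf2, Srsf4 and Srsf9) and 4 hnRNP genes (Hnrnpab, Hnrnpd, Hnrnpl and Hnrnpu) were lower and none was higher, beside 6.95% of all genes lower and 6.01% higher. The smallest adjusted p of limma-voom was 0.248 in the SR family and 0.32 in the hnRNP family. Prmt5, the deleted gene, was not called either, at a log2 fold change of -3.52 and a limma-voom adjusted p of 0.193. That was the smallest adjusted p over all genes tested, so a gene that was not called may still differ. For 2 libraries against 2, an exact permutation test cannot go below 0.333. These are bulk cultures, in which fewer cells of a type and less RNA per cell cannot be told apart.

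**Figure D1:**
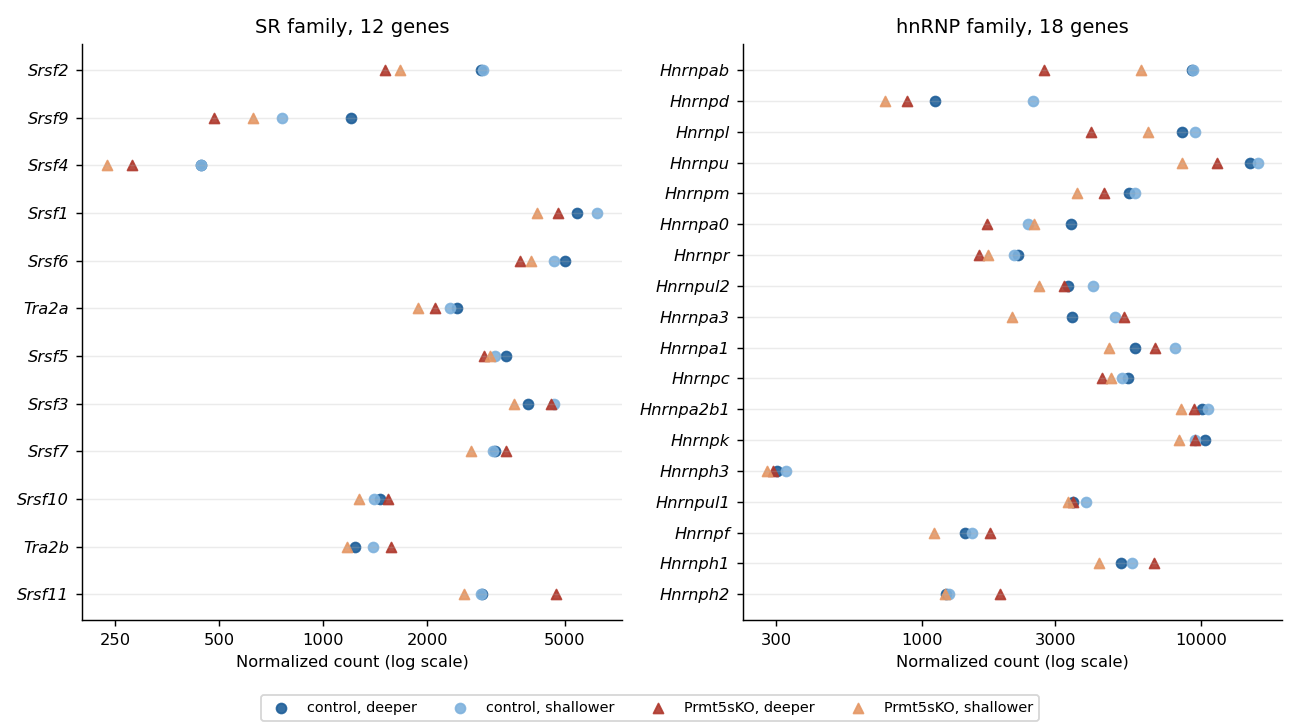
Normalized counts (horizontal axis, log scale) of the 12 SR genes (left) and 18 hnRNP genes (right) in each library, circles for control and triangles for Prmt5sKO. Genes are ordered by their log2 fold change, with Srsf2 and Hnrnpab at the top, where both triangles lie left of both circles, and with Srsf11 and Hnrnph2 at the bottom.

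Among the SR genes, 3 stood apart from the rest. Srsf2 (SC35), which defines exons and is a well-known marker of nuclear speckles, was at 2864 and 2897 normalized counts in the control libraries and at 1511 and 1672 in the Prmt5sKO libraries. The groups did not overlap, and the libraries of each lay close together, for a log2 fold change of -0.86 ± 0.20 (SE, 2 libraries per group, limma-voom adjusted p = 0.248). Leaving out any 1 library kept it between -0.93 and -0.78. Srsf4 (SRp75), the largest of the classical SR proteins, was at 442 and 444 in control and 279 and 236 in Prmt5sKO libraries, for which the log2 fold change was -0.77 ± 0.26 (adjusted p = 0.325). It was the least abundant SR gene per kilobase of exon, with a control mean of 124 normalized counts per kb. Srsf9 (SRp30c), the closest relative of Srsf1, had 1206 and 757 in the controls and 482 and 627 in the Prmt5sKO libraries. Its groups did not overlap either, but its controls differed from each other, and its log2 fold change of -0.82 ± 0.30 (adjusted p = 0.354) became -0.48 without the deeper control library and -1.13 without the shallower one.

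Srsf1 (SF2/ASF), the founding SR protein, was at 5412 and 6203 in control and 4762 and 4153 in Prmt5sKO libraries (log2 fold change -0.38 ± 0.21, adjusted p = 0.47). Together with Srsf9 it forms a pair of relatives, and summed they gave 6618 and 6960 normalized counts in the controls against 5244 and 4780. Srsf6 (SRp55), a relative of Srsf4 and Srsf5, had 4996 and 4648 in the controls and 3698 and 3982 in the mutants (-0.33 ± 0.20, adjusted p = 0.503). Srsf5 (SRp40) had 3379 and 3131 against 2924 and 3044 (-0.12 ± 0.19, adjusted p = 0.799), with a log2 fold change of -0.082 when the deeper control was left out. In this trio of Srsf4, Srsf5 and Srsf6, both Prmt5sKO libraries were below both controls for every gene, by amounts that ranged from -0.77 to -0.12. Of all genes tested, 23.6% had this order. Tra2a, a Transformer 2 protein that activates exons rich in GAA repeats, had 2431 and 2324 in control and 2098 and 1884 in Prmt5sKO libraries (-0.26 ± 0.20, adjusted p = 0.587).

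The remaining 5 SR genes overlapped between the groups. Srsf11 (p54) had 2873 and 2865 in the controls and 4697 and 2555 in the Prmt5sKO libraries, so that the deeper Prmt5sKO library was the highest and the shallower one the lowest of the 4. Its log2 fold change was 0.27 ± 0.32 (adjusted p = 0.725), and without the deeper Prmt5sKO library it was -0.17. Srsf3 and Srsf7, the small SR proteins that also couple splicing to mRNA export, lay at -0.09 and -0.05, and Srsf10 and Tra2b at -0.03 and 0.05. Srsf10 is a splicing repressor when dephosphorylated, and Tra2b is the partner of Tra2a. For these 4 genes the log2 fold change changed sign with the library left out (Srsf3, Srsf7, Srsf10 and Tra2b), and for the first 3 also under scaling by library size alone.

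The largest difference of the whole set was that of Hnrnpab, a relative of hnRNP D that binds RNA and single-stranded DNA. It was at 9249 and 9363 in the control libraries and at 2737 and 6065 in the Prmt5sKO libraries. The groups were apart and the controls nearly equal, while the Prmt5sKO libraries differed by 1.15 on the log2 scale. The log2 fold change was -1.19 ± 0.39 (adjusted p = 0.32), or 0.439 of the control level. It was -0.62 without the deeper Prmt5sKO library and -1.77 without the shallower one. Each of these fits has a single Prmt5sKO library, so its spread comes from the controls alone. Hnrnpd (AUF1), which binds AU-rich elements and controls mRNA decay, had 1111 and 2499 in control and 886 and 736 in Prmt5sKO libraries (-1.04 ± 0.40, adjusted p = 0.363). Here the controls differed from each other by 1.17 on the log2 scale, and the fold change was -0.45 without the shallower control library and -1.64 without the deeper one.

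Hnrnpl, which binds CA repeats, was at 8566 and 9509 in the controls and 4039 and 6428 in the Prmt5sKO libraries, with a log2 fold change of -0.82 ± 0.28 (adjusted p = 0.33). Without the deeper Prmt5sKO library it was -0.49. Hnrnpu (SAF-A), a scaffold-attachment protein with roles in chromatin structure, had 14970 and 15960 in control and 11430 and 8524 in Prmt5sKO libraries, the highest counts of any member (-0.65 ± 0.24, adjusted p = 0.347). Its relatives Hnrnpul2, at 3322 and 4099 against 3215 and 2631 (-0.35 ± 0.23, adjusted p = 0.532), and Hnrnpul1, at -0.11, were lower by less. For all 3 genes of the U group both Prmt5sKO libraries lay below both controls, an order found for 23.6% of all genes tested. For Hnrnpul1 this was a near tie, with 3479 and 3853 in control and 3464 and 3321 in Prmt5sKO libraries. Hnrnpul2 was -0.19 without the shallower control library and -0.20 without the shallower Prmt5sKO library. Hnrnpm, which binds GU-rich RNA and enhances or represses exons, had 5505 and 5783 against 4487 and 3578 (-0.50 ± 0.22, adjusted p = 0.396). Hnrnpr had 2204 and 2127 against 1597 and 1721 (-0.39 ± 0.19, adjusted p = 0.441), and the libraries of each group lay close together.

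The hnRNP A genes encode classical splicing repressors, and they overlapped between the groups except for Hnrnpa2b1. Hnrnpa2b1 had 10070 and 10550 in the controls and 9403 and 8464 in the Prmt5sKO libraries (-0.21 ± 0.20, adjusted p = 0.67), and without the shallower Prmt5sKO library its log2 fold change was -0.13. Hnrnpa1, the best-studied antagonist of Srsf1, had 5788 and 8061 in control and 6854 and 4686 in Prmt5sKO libraries (-0.27 ± 0.29, adjusted p = 0.693), so that the shallower library of the mutants was the lowest and the deeper one lay between the controls. Hnrnpa0 had 3420 and 2393 against 1709 and 2512 (-0.47 ± 0.29, adjusted p = 0.516), with the deeper Prmt5sKO library lowest and the shallower one between the controls. It was -0.19 without the deeper Prmt5sKO library and -0.74 without the shallower one, -0.22 without the deeper control and -0.71 without the shallower one. For Hnrnpa3 the Prmt5sKO libraries differed by 1.33 on the log2 scale, the widest gap of any member (5293 and 2108 against 3457 and 4892 in control). It is named here after its values were seen. Summed over the 4 genes, the deeper Prmt5sKO library (23260) lay between the controls (22740 and 25900) and the shallower one (17770) below them.

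The F and H genes, whose proteins bind runs of G, had a median log2 fold change of -0.04. In the deeper Prmt5sKO library Hnrnpf, Hnrnph1 and Hnrnph2 were above both controls, and in the shallower one all 4 genes including Hnrnph3 were below both. Of all genes tested, 38.9% were above both controls in the deeper library and 38.2% below both in the shallower one. Hnrnph2 had the only positive value of the hnRNP family, 0.30, and it was -0.02 without the deeper Prmt5sKO library. Hnrnph1 stood at a log2 fold change of -0.002 and took either sign across the alternatives. Hnrnpc, which binds tracts of uridine, and Hnrnpk, a KH-domain protein that binds C-rich RNA, were at -0.22 and -0.15, and only for Hnrnpc were the groups apart.

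**Figure D2:**
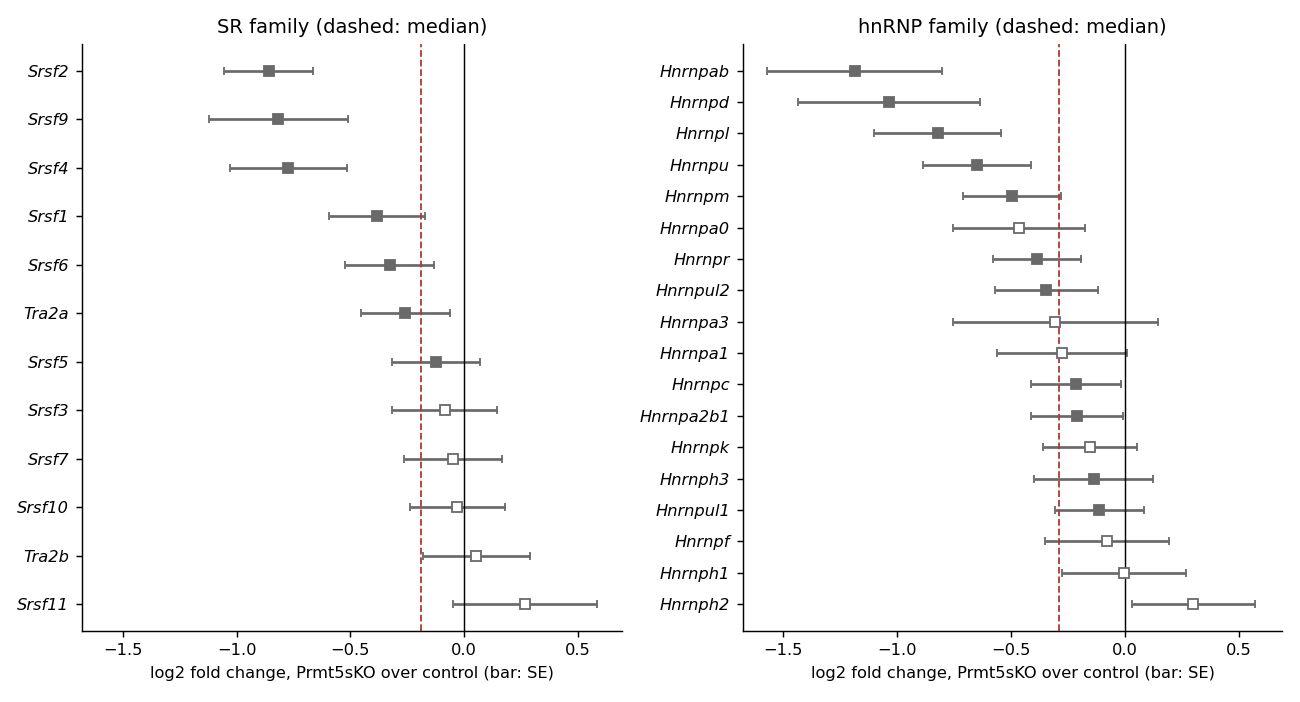
Log2 fold change of each member, Prmt5sKO over control, with its standard error (bars), for the SR genes (left) and the hnRNP genes (right). Filled squares mark the 7 SR and 11 hnRNP genes whose groups do not overlap, and the dashed line is the family median, -0.19 and -0.29.

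The members did not differ alike in the Prmt5sKO libraries. In the shallower one, 12 of 12 SR genes and 17 of 18 hnRNP genes were below both controls, Hnrnpa0 being the exception, and none was above, beside 38.2% of all genes tested below and 39.7% above. In the deeper one, 7 SR and 12 hnRNP genes were below both controls, while 4 SR genes (Srsf7, Srsf10, Srsf11 and Tra2b) and 4 hnRNP genes (Hnrnpa3, Hnrnpf, Hnrnph1 and Hnrnph2) were above both, beside 36.1% of all genes below and 38.9% above. Against the control mean, the median difference was -0.17 for SR and -0.17 for hnRNP genes in the deeper library and -0.27 and -0.37 in the shallower one, beside 0.04 and 0.03 for all genes. Between the Prmt5sKO libraries, 8 SR and 13 hnRNP genes were lower in the shallower one, and the 4 SR genes (Srsf2, Srsf5, Srsf6 and Srsf9) and 5 hnRNP genes (Hnrnpa0, Hnrnpab, Hnrnpc, Hnrnpl and Hnrnpr) lower in the deeper one all lay below the control mean there.

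The Prmt5sKO libraries also differed in other genes. The summed level of 10 muscle differentiation markers, such as Myog, Acta1 and Myh3, was 9953 and 6041 in the controls, and in Prmt5sKO it was 16530 in the deeper library but 220600 in the shallower. Of these markers 9 of 10 were above both controls in both Prmt5sKO libraries, beside 25.2% of all genes tested. The largest log2 fold changes were those of Ckm (3.97) and Acta1 (3.51). The summed level of 12 S-phase genes was 52220 and 63700 in the controls and 26560 and 31120 in the Prmt5sKO libraries. Both Prmt5sKO libraries were below both controls for 11 of these 12 genes, beside 23.6% of all genes tested. The largest differences were those of Cdt1 (-2.23) and Cdc6 (-1.94). The part of either in the values of the SR and hnRNP genes was not tested. Within a group, the median absolute difference between libraries was 0.26 for SR and 0.37 for hnRNP genes in Prmt5sKO and 0.08 and 0.11 in control, beside 0.43 and 0.37 for all genes, many of which have far fewer counts.

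**Figure D3:**
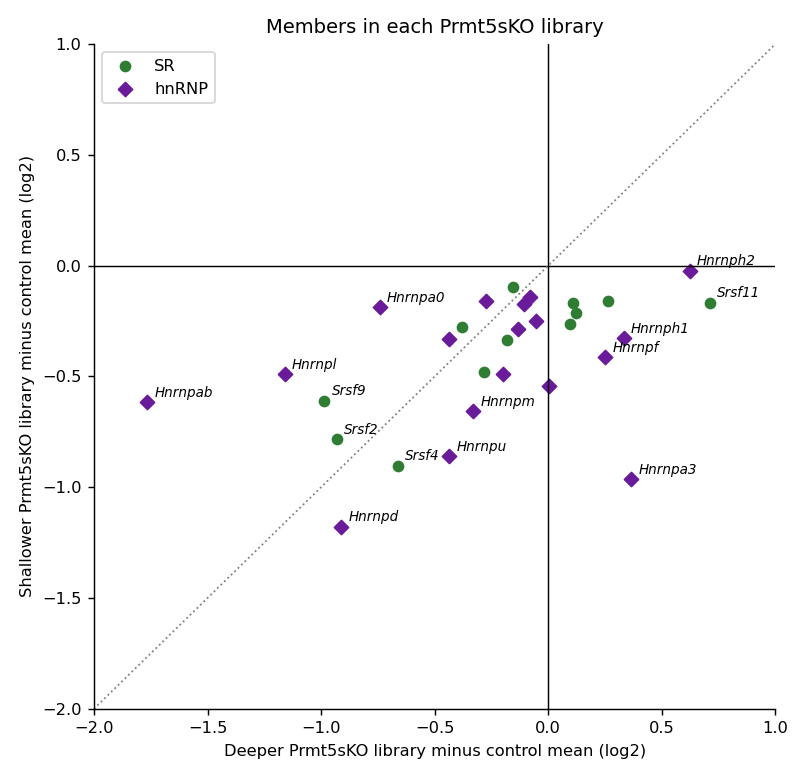
Difference of each member from the control mean (log2) in the deeper Prmt5sKO library (horizontal axis) and the shallower one (vertical axis), circles for SR and diamonds for hnRNP genes. Every member lies below 0 on the vertical axis, whereas the horizontal positions spread to both sides of 0, and points on the dotted line have the same difference in both libraries.

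Between the families, the levels per length were compared in each library. Summed over members, SR genes gave 7065 and 6883 normalized counts per kb of exon in control and 5994 and 5416 in Prmt5sKO libraries, and hnRNP genes 17730 and 19010 against 14240 and 13330. Both sums were lower in both mutants. The SR sum divided by the hnRNP sum, which does not depend on the scaling, was 0.399 and 0.362 in control and 0.421 and 0.406 in Prmt5sKO libraries, without overlap. This rested on a single gene, since without Hnrnpab the ratios were 0.491 and 0.44 against 0.452 and 0.486. Genes are not replicates, so the medians of the families, -0.19 and -0.29, were not compared by a test, and the shares with groups apart and lower, 58.3% and 61.1%, were close.

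**Figure D4:**
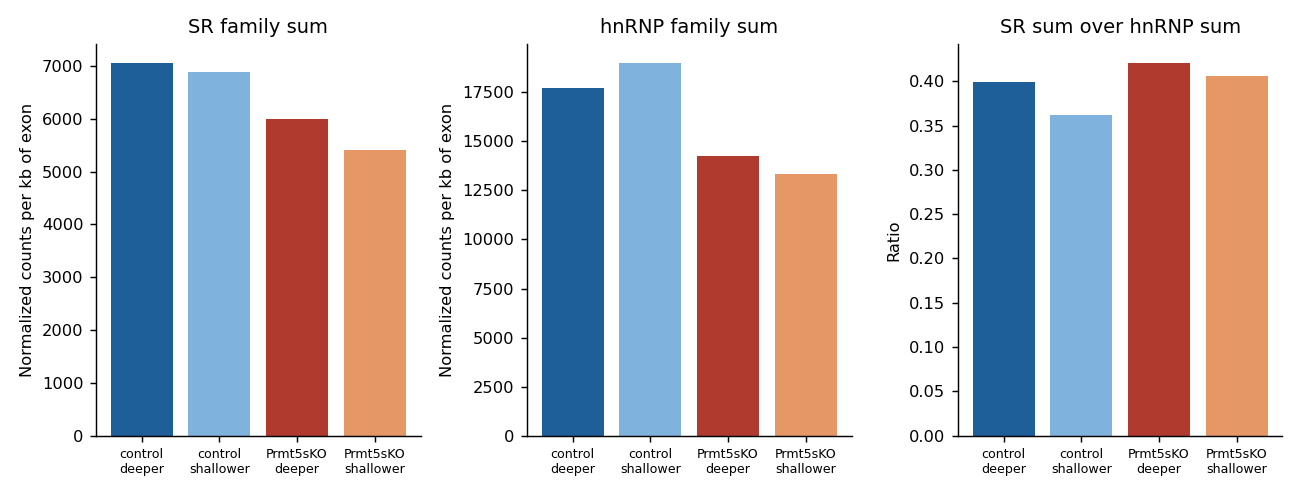
Summed normalized counts per kb of exon for the SR family (left) and the hnRNP family (middle) and their ratio (right), 1 bar per library without error bars. Both sums are lower in the Prmt5sKO libraries, and the ratio is 0.399 and 0.362 in control and 0.421 and 0.406 in Prmt5sKO libraries.

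The order of levels per kb of exon was read in each group and library. In control libraries Hnrnpab was the most abundant member (mean 3345 normalized counts per kb), followed by Hnrnpa1 (2196), Hnrnpa2b1 (1566), Hnrnpk (1529) and Hnrnpl (1518). The last 3 lay within the spread of their libraries. In the shallower Prmt5sKO library Hnrnpab again led with 2180, ahead of Hnrnpa1 with 1486. In the deeper one Hnrnpa1 led with 2174, and Hnrnpab, at 984, lay also below Hnrnpk (1472), Hnrnpa2b1 (1428), Hnrnph1 (1163), Hnrnpc (1021) and Hnrnpu (986). Hnrnpab made up 18.8% and 17.7% of the hnRNP sum in the controls, and 6.91% (deeper) and 16.4% (shallower) of it in the mutants. Of the SR genes, Srsf1 (1017), Srsf6 (1003) and Srsf2 (974) led in control with overlapping library values. The order differed between the Prmt5sKO libraries, with Srsf7 (952.5), Srsf1 (834) and Srsf6 (769) first in the deeper one and Srsf6 (828), Srsf5 (763) and Srsf7 (755) in the shallower one. Srsf2, at 511 and 565, was below these genes in both. Exon length is that of all annotated exons joined, so a gene that uses short isoforms is placed too low.

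Counts per gene pool all isoforms, and the forms carrying poison exons were not counted apart. In GENCODE release M21, 11 of 12 SR genes (91.7%, all but Srsf10) and 8 of 18 hnRNP genes (44.4%) have a transcript marked for nonsense-mediated decay, beside 27.8% of the 13438 protein-coding genes tested. Of the factors that carry out this decay, 0 of 10 passed the test, and the median log2 fold change was -0.32. Both Prmt5sKO libraries lay below both controls for 5 factors of this decay, beside 23.6% of all genes tested. Upf1, its central helicase, was at 1506 and 2683 in control and 503 and 672 in Prmt5sKO libraries (-1.80, limma-voom adjusted p = 0.222), and Smg9 was at -0.57.

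Some member counts may hold reads of other genes. Exons of genes on the opposite strand cover 43% of the joined exons of Srsf4, 29.1% of Hnrnpab, 26.5% of Hnrnpf and 25.3% of Srsf2, and whether the counting used strand is not given in the sources used here. The partner of Srsf4, Gm12992, had between 24.1 and 41.5 normalized counts. That of Hnrnpab, Phykpl, had 857 and 918 in control and 568 and 499 in Prmt5sKO libraries, and those of Srsf2, Mettl23 and Mfsd11, had log2 fold changes of 0.09 and 0.29. On the same strand, exons of March2 cover 14.7% of those of Hnrnpm. March2 had 331 and 293 in control and 504 and 555 in Prmt5sKO libraries, a difference opposite in sign to that of Hnrnpm. Pseudogene copies, which RefSeq lists for Srsf3 and Hnrnpa1, could also take or give reads.

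Related genes were read from lists chosen for their roles, and in none of them did a gene pass the test. Of all genes tested, 23.6% had both Prmt5sKO libraries below both controls and 25.2% above. Of the other hnRNP-type proteins, 15 of 20 had both Prmt5sKO libraries below both controls and 1 (Ptbp2, named after its values were seen) above, with a median log2 fold change of -0.48. Taf15, an RNA-binding protein of the FET family, had 1539 and 1716 in control and 471 and 674 in Prmt5sKO libraries (-1.54, adjusted p = 0.203). Pcbp1, which binds poly(C), had 3654 and 4377 against 1666 and 2269 (-1.04, adjusted p = 0.252). Among SR-related proteins 11 of 17 were below in both libraries and 0 above, with a median of -0.26, and Srrm2, a scaffold of nuclear speckles, and Arglu1 had the largest differences at -0.92 and -0.59.

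The kinases and importers of SR proteins had a median of 0.00, with 4 of 10 below and 2 above, beside 23.6% and 25.2% of all genes. Srpk1, which phosphorylates SR proteins in the cytoplasm, was at 3776 and 3907 in control and at 2092 in both Prmt5sKO libraries (-0.88, limma-voom adjusted p = 0.244). Srpk3, the form of striated muscle, was at 106 and 59.7 in control, and in Prmt5sKO at 102 in the deeper library and at 1122 in the shallower, the one with the high level of differentiation markers. The 2 genes above in both libraries, named after their values were seen, were Srpk2 (756 and 989.5 against 1506 and 1580) and Clk1. Regulators of muscle and tissue splicing had a median of 0.13. Of these 5 of 15 (33.3%) were below and 4 (26.7%) above, not far from the shares of all genes. Rbfox1, which drives muscle exons, had 179.7 and 77.8 in control and 369.7 and 543 in Prmt5sKO libraries (1.87, adjusted p = 0.268), and Nova1, with at most 21.5 normalized counts, was at -2.33.

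**Figure D5:**
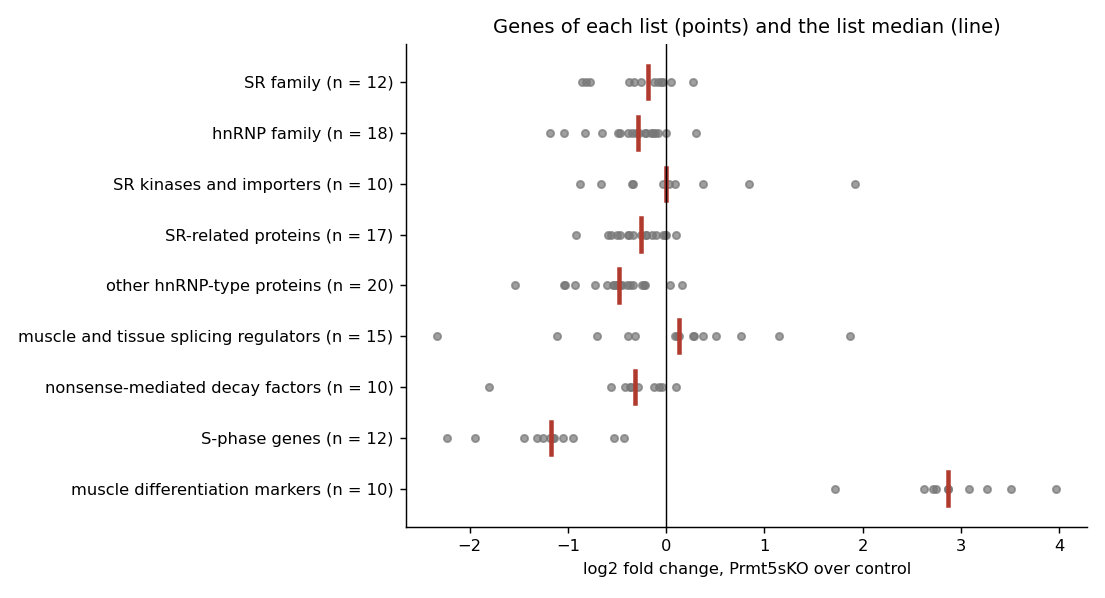
Log2 fold change (Prmt5sKO over control, horizontal axis) of each gene tested (points) and the median (line) for the 2 families and 7 other lists. The SR and hnRNP medians are -0.19 and -0.29, that of the other hnRNP-type proteins is -0.48, that of the S-phase genes -1.17 and that of the muscle differentiation markers 2.87.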

How the data were processed

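RNA of 4 cultures of MuSC was sequenced, 2 control and 2 Prmt5sKO. The authors trimmed reads with Reaper, aligned them to GRCm38 (STAR 2.4.0a, per the submitters' processing notes), counted them per gene, and deposited signal values that are group means of counts divided by DESeq2 (1.62) size factors. Their columns of log2 fold changes, standard errors and p-values were not used. The means were split back into whole reads of each library. These were scaled by TMM (own code, trims of 30% and 5%), genes whose mean normalized count was under 5 were dropped, and limma-voom compared the groups (limma 3.58.1, R 4.3.3, prior degrees of freedom 4.07). Both steps were tested on simulated data. For the fit, the simulated spread was set and not taken from these libraries, so its performance at their spread was not tested.

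Families and lists were described by counts and medians, without a test. The named genes were the 8 members of each family with the largest absolute log2 fold change, the 3 with the most counts per kb, the 2 with the largest absolute difference of each other list, and Prmt5. Members and lists were chosen with earlier results of these data known. GENCODE release M21 (GRCm38, the build of the authors) held 19782 of the 20065 identifiers and gave symbols and exon lengths. Other scalings, filters, tests, libraries left out and library pairings were tried. Replicates of a group had a Spearman correlation of counts of 0.966 and 0.953, and their counts differed by more than sampling noise.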

Additional observations from a re-analysis of the deposited data

How the results depend on the processing

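Of 450 member values under 15 alternatives, 428 kept direction and side of the threshold. With 0 genes called over all genes in the main fit and in most alternatives, the side could seldom change, so this mostly describes direction. Hnrnpab alone crossed the threshold, and only in a fit left with a single Prmt5sKO library, whose spread came from the controls. The sign of 10 members turned at least once. Leaving out each library in turn, the range was -0.26 to 0.095 for Srsf3, -0.21 to 0.12 for Srsf7, -0.17 to 0.11 for Srsf10, -0.17 to 0.71 for Srsf11, -0.16 to 0.26 for Tra2b, -0.96 to 0.36 for Hnrnpa3, -0.41 to 0.25 for Hnrnpf, -0.33 to 0.33 for Hnrnph1, -0.024 to 0.62 for Hnrnph2 and -0.54 to 0.0047 for Hnrnpa1. Under scaling by library size alone the value was 0.020 for Srsf3, 0.058 for Srsf7, 0.075 for Srsf10, 0.026 for Hnrnpf and 0.10 for Hnrnph1. Hnrnph1 was also at 0.0041 without a filter and at 0.0018 and 0.0019 under limma-trend with pseudocounts of 0.5 and 2.

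Scaling by library size alone moved the median of all genes to 0.13. The SR median became -0.085, and 5 of 12 SR and 7 of 18 hnRNP genes lay apart and lower. The share of all genes that lay apart and lower was not counted under this scaling, so these counts have no background. Relative to all genes the medians were -0.22 (SR) and -0.31 (hnRNP), against -0.21 and -0.31 with TMM. Leaving out each library in turn gave -0.27 to -0.17 for the SR median and -0.37 to -0.17 for the hnRNP median. It gave 7 to 12 SR and 12 to 17 hnRNP genes lower, 0 to 4 SR and 0 to 4 hnRNP genes higher, and 0 to 489 genes called, with the lone library of a group assumed to vary like the other group. The highest numbers lower came without the deeper Prmt5sKO library, and the highest numbers higher without the shallower one. A single library is more easily apart for any gene, and with a library left out 33.4% to 38.4% of all genes tested lay lower and 35.9% to 39.6% higher. The difference of the log2 SR to hnRNP ratio, 0.12, was 0.013 without Hnrnpab and 0.054 to 0.19 with a library left out, both chosen after seeing the data.

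The libraries share no known number. A replicate block pairing deeper with deeper libraries called 0 genes, and one pairing deeper with shallower called 346, of which 0 were members. Differences within the groups correlated across genes at -0.30 and 0.30 for these pairings. The causes were not tested, and 2 libraries per group limit every value.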
